A study of Mus musculus with 48 samples.

Results

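Endothelin and nitric oxide are the main constrictor and dilator signals made by endothelium, and 10 genes of these pathways were followed here in mouse heart and diaphragm. The 10 genes were taken by name from the gene-level expression matrix of 54752 Ensembl genes: the ligand Edn1, its receptors Ednra and Ednrb, the converting enzyme Ece1, the nitric oxide synthases Nos1, Nos2 and Nos3, the synthase inhibitor Cav1, and the soluble guanylate cyclase subunits Gucy1a1 and Gucy1b1. Every name matched 1 row of the matrix. The study asked how lymphatic and blood endothelium respond to angiotensin II and to a lymphangiogenic growth factor. RNA was sequenced from 48 libraries of 13 male C57BL/6 Prox1-eGFP mice, in which eGFP is expressed from the endogenous Prox1 locus, so that lymphatic endothelial cells (LECs) carry the reporter in every group, controls included. The 4 populations were heart LECs, heart blood endothelial cells (BECs), diaphragm LECs and heart cardiomyocytes, with 12 libraries each. Minipumps delivered saline with bovine serum albumin (BSA) to the donors of 4 libraries per population (ctrl). The donors of 5 received angiotensin II with BSA (angII). The donors of 3 received both angiotensin II and VEGFCc156s (angII+VEGFC), the added factor being a VEGF-C mutant that activates VEGFR3 but not VEGFR2. The labels give ages of 8 to 16 in months, whereas the methods of the study give ages in weeks, so the unit of the age used as a covariate is uncertain. Endothelial cells were sorted as CD31+ CD45.2- cells and divided by eGFP, whereas cardiomyocytes were pelleted at low speed and not sorted, and they may hold other heart cells.

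In the endothelin pathway, endothelial cells release a precursor peptide that the membrane protease encoded by Ece1 cuts into the active ligand. The ligand constricts smooth muscle and promotes cardiomyocyte growth through Ednra, while Ednrb on endothelium clears the ligand and triggers nitric oxide release. Nitric oxide is made from arginine by 3 synthases, of which Nos3 is the endothelial form, and it diffuses to neighbouring cells and activates soluble guanylate cyclase, which makes cyclic GMP and relaxes muscle. In blood vessels this lowers tone, and in collecting lymphatics nitric oxide from the endothelium modulates the pumping of lymphatic muscle.

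Promoters are printed for 3 of the 10 genes: the ligand Edn1, whose level in heart LECs differed from that of both other endothelial populations, and the cyclase subunits Gucy1a1 and Gucy1b1, which lie near each other on chromosome 3 and were both higher in LECs. The sequences run from 250 bases before to 50 bases after the RefSeq start (build GRCm38.p6), and RefSeq entries matched 8 of the 10 genes, with none used for Nos2 and Nos3. Capitals mark motifs that were searched: the box TATAAA on the gene's strand and, on both strands, TGACTCA of AP-1 factors, AGATAA of GATA factors, CACACCC of Kruppel-like factors, CGGAAGT of ETS factors, GGGCGGG of SP1 and the hypoxia response core ACGTG. None of these overlapped another in the printed windows. The Edn1 promoter, chr13:42301226-42301525 on the + strand, held AGATAA and ACGTG, each on the opposite strand, so that the capitals show their complements read backwards.
Edn1: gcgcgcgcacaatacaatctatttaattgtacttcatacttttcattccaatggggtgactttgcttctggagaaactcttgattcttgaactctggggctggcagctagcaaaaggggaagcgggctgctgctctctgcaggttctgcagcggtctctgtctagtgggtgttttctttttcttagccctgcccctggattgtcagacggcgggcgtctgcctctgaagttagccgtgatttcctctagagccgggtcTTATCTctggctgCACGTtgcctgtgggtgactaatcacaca
The printed Gucy1a1 promoter, chr3:82145601-82145900 on the - strand, is the first of 2 starts, and the Gucy1b1 promoter is chr3:82074662-82074961 on the - strand. Each held GGGCGGG once.
Gucy1a1: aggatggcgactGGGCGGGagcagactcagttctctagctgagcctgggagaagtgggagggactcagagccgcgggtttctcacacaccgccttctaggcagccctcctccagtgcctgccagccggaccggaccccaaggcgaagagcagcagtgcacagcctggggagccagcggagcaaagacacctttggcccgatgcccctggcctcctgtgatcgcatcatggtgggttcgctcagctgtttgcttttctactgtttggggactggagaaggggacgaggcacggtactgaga
Gucy1b1: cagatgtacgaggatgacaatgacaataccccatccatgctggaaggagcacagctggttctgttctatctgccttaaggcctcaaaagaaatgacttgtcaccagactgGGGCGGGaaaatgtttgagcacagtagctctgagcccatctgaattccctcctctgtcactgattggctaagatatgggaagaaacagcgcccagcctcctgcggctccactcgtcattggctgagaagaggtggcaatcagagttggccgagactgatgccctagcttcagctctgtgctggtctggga
Among 32851 mouse promoters of this length, 11.2% held AGATAA, 19.6% held ACGTG and 25.6% held GGGCGGG, so these matches are descriptions of common letters. The Gucy1a1 and Gucy1b1 genes are read in the same direction and are 17737 bp apart (chromosome 3, 82092427 to 82145789 and 82032006 to 82074689). Edn1 lies on chromosome 13 at 42301476 to 42307990.

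The labelled populations matched their defining markers. The summed level of 6 LEC markers was 18070 to 31973 TPM (transcript abundance scaled by transcript length and to a common total per library) in heart LECs and 22361 to 43195 in diaphragm LECs, against 214 to 705 in heart BECs and 96.2 to 282 in cardiomyocytes. The 6 BEC markers summed to 12991 to 19226 TPM in heart BECs, 1259 to 7388 in heart LECs and 646 to 1498 in diaphragm LECs. They include Pecam1, the gene of CD31, on which LECs were also sorted, so in LECs the sum may include their own RNA. Cardiomyocyte libraries also carried 1880 to 3358 TPM of the BEC markers, 2157 to 4724 of 6 fibroblast markers, 970 to 1971 of 8 mural cell markers and 507 to 1678 of 6 leukocyte markers, so any level in this fraction is that of a mixture. In every population, fewer cells of a type and less RNA per cell cannot be told apart. The deposited TPM hold no read counts and depth is unknown, and between 12924 and 25896 genes reached 1 TPM in a library. Among diaphragm LECs, the library of ctrl mouse 9 stood apart with 681 TPM of mural markers against 46.9 to 130 in the other 11, and that of angII mouse 4 had the lowest LEC marker sum, 22361 TPM. Among BECs, the libraries of ctrl mouse 1, angII+VEGFC mouse 2 and angII mouse 3 held 3716, 2438 and 2257 TPM of fibroblast markers, against 420 to 902 in the other 9. With these 3 left out, an alternative chosen after seeing the data, heart LECs differed from BECs by -0.96 for Edn1, 1.40 for Ece1, -3.40 for Nos2, -0.78 for Nos3, -0.86 for Cav1, 0.79 for Gucy1a1 and 1.31 for Gucy1b1 on the log2 scale, and no call of the 10 genes changed in any comparison.

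Cav1 and Ece1 were the most abundant of the 10 genes, with a median of 1424 TPM each in heart LECs, and Nos1 was the least, at or below a median of 1.04 TPM in every population. The median of Ednra was highest in cardiomyocytes and that of Nos2 in BECs. Populations were compared with limma on log2(TPM + 1), as the mean over the 3 treatments, with p-values adjusted over all genes. Of the 10 genes, 7 differed between heart LECs and BECs, 3 higher and 4 lower, where 21% of all 29402 genes passed the same test, 11% higher and 10.1% lower. Between diaphragm and heart LECs 5 differed, 2 higher and 3 lower, where 2.95% of all 31319 genes passed, 1.3% higher and 1.65% lower. All 6 BEC markers were lower in diaphragm than in heart LECs, 4 of them passing the same test, with a median of -2.02. Their part in the differences between these LECs was not tested. Between cardiomyocytes and BECs 7 differed, 1 higher and 6 lower, where 74.8% of all 23213 genes passed. The median difference of the 10 genes was -0.38, 0.00 and -1.94 on the log2 scale in these comparisons, and that of all genes 0.16, -0.11 and -0.61.

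**Figure D1:**
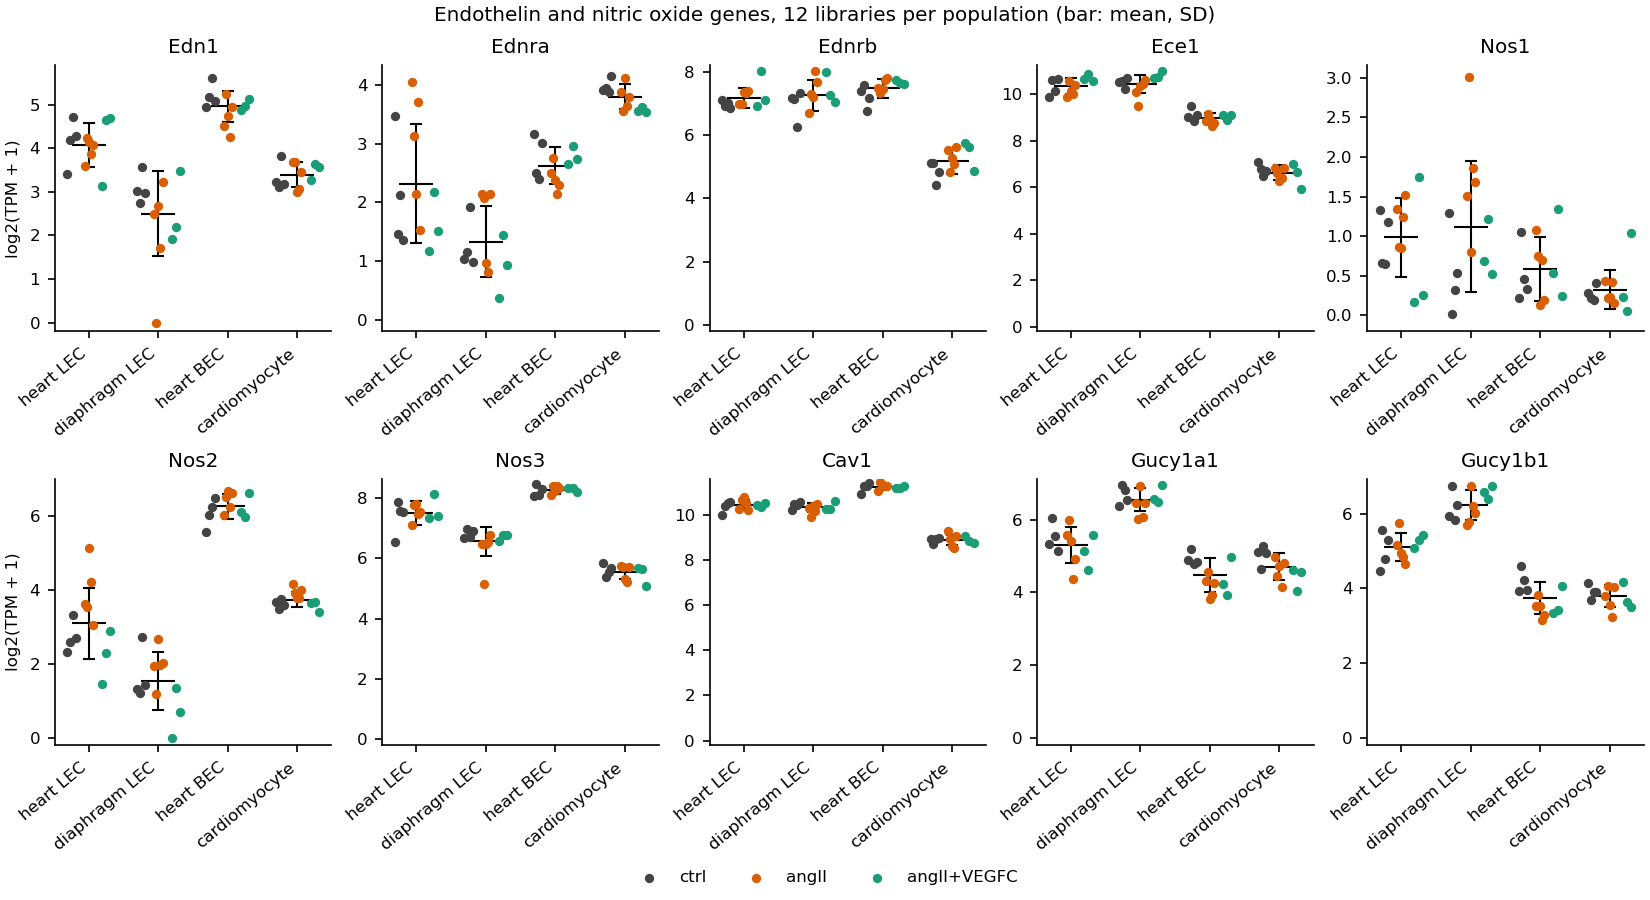
Level of each of the 10 genes in every library, as log2(TPM + 1), by population (12 libraries each), coloured by treatment, with the mean and SD of each population as black bars. Nos2 is highest in heart BECs with no overlap, Ednra has its highest median in cardiomyocytes with some heart LEC libraries inside their range, and Gucy1a1 and Gucy1b1 are highest in diaphragm LECs, where the lowest diaphragm library falls just inside the heart LEC range.

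The ligand Edn1 was ordered from BECs to heart LECs, cardiomyocytes and diaphragm LECs, and the ranges of each pair of neighbours in this order overlapped. It spanned 18.1 to 48.2 TPM in BECs with a median of 30.1, and 7.80 to 25.1 in heart LECs with a median of 17.0. In diaphragm LECs it spanned 0 to 10.8 TPM, median 5.54, and in cardiomyocytes 6.93 to 13.2, median 9.31. Within the mouse, the heart LEC library was below the BEC library in 12 of 12 mice and the diaphragm LEC library below the heart LEC library in 11 of 11. Heart LECs were 0.88 lower than BECs on the log2 scale (SE 0.18, limma adjusted p = 0.000777), with -0.89 in sequencing batch 1 and -0.87 in batch 2. Diaphragm LECs were lower than heart LECs by a further 1.53 (SE 0.31, adjusted p = 0.00313; -1.80 and -1.37 by batch). The single 0 was the library of angII mouse 4, and without it the difference was -1.38 (adjusted p = 0.000895).

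Between cardiomyocytes and BECs the receptors went in opposite directions. Ednrb, the endothelial receptor, spanned 108 to 222 TPM in BECs (median 185), 75.2 to 259 in diaphragm LECs (median 150), 116 to 260 in heart LECs (median 132) and 20.5 to 53.0 in cardiomyocytes (median 33.8). The 3 endothelial populations overlapped, and all of them were above every cardiomyocyte library. Heart LECs differed from BECs by -0.31 (95% interval -0.55 to -0.07, adjusted p = 0.0625). With the mouse as a block the adjusted p was 0.0449, and it was 0.00138 without the heart LEC library of angII+VEGFC mouse 6, which at 260 TPM was the highest of its population, and 0.0339 without the BEC library of ctrl mouse 9. Diaphragm and heart LECs differed by 0.09 (interval -0.24 to 0.42, adjusted p = 0.865), and the sign differed between batches, -0.26 and 0.44.

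Ednra, the receptor of muscle, was the 1 gene of the 10 that was higher in cardiomyocytes than in BECs. It spanned 10.7 to 16.8 TPM in cardiomyocytes (median 13.3), above the 3.40 to 7.95 of BECs (median 4.99) in every library. The difference was 1.13 on the log2 scale (SE 0.11, adjusted p = 2.67e-09), in 12 of 12 mice. Heart LECs spread from 1.26 to 15.6 TPM (median 3.39) and diaphragm LECs from 0.289 to 3.43 (median 1.14), and neither comparison between endothelial populations passed: -0.44 for heart LECs against BECs (interval -0.97 to 0.09, adjusted p = 0.235; 0.16 and -0.77 by batch) and -0.97 for diaphragm against heart LECs (interval -1.61 to -0.33, adjusted p = 0.106). As a share of both receptors per library, Ednra made up 17.0 to 40.1% in cardiomyocytes, 1.58 to 4.76% in BECs, 1.04 to 11.0% in heart LECs and 0.113 to 3.59% in diaphragm LECs. Cardiomyocytes therefore stood apart from every endothelial library in receptor balance. Mural markers, whose cells carry Ednra, were also higher in the cardiomyocyte fraction (970 to 1971 TPM) than in BECs (160 to 446), and their part in the difference was not tested.

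Ece1 was higher in heart LECs than in BECs. It spanned 938 to 1864 TPM in heart LECs (median 1424) and 714 to 2046 in diaphragm LECs (median 1518), against 398 to 716 in BECs (median 497) and 59.9 to 135 in cardiomyocytes (median 102). All heart LEC libraries were above all BEC libraries, the lowest diaphragm LEC library, that of angII mouse 4, lay just below the highest BEC library, and all BEC libraries above all cardiomyocytes. The difference of heart LECs from BECs was 1.40 (SE 0.10, adjusted p = 1.74e-10; 1.30 and 1.44 by batch), where groups did not overlap for 3.55% of all genes. Diaphragm and heart LECs differed by 0.11 (interval -0.11 to 0.33, adjusted p = 0.713). The enzyme and its substrate thus ran in opposite directions: Edn1 was lower and Ece1 higher in heart LECs than in BECs in 12 of 12 mice.

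Among the synthases Nos3 was the most abundant in every population. It spanned 264 to 350 TPM in BECs (median 319), 92.7 to 280 in heart LECs (median 186), 34.2 to 124 in diaphragm LECs (median 102) and 32.8 to 56.4 in cardiomyocytes (median 49.8). Neighbours in this order overlapped: the heart LEC library of ctrl mouse 1, at 92.7 TPM, lay inside the diaphragm LEC range, and that of angII+VEGFC mouse 6, at 280 TPM, inside the BEC range. Heart LECs were 0.76 lower than BECs (SE 0.13, adjusted p = 9.43e-05; -0.71 and -0.81 by batch), and diaphragm LECs were 0.91 lower than heart LECs (SE 0.17, adjusted p = 0.00125; -1.12 and -0.78). The lowest diaphragm library was that of angII mouse 4, and without it the difference was -0.82 (adjusted p = 0.000346).

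Nos2, the inducible synthase best known from activated macrophages, had the widest spread between populations. BECs spanned 46.1 to 99.9 TPM (median 74.2), above every other library. Cardiomyocytes followed with 9.62 to 16.7 (median 12.0), then heart LECs with 1.72 to 33.9 (median 6.78) and diaphragm LECs with 0 to 5.57 (median 1.61). Heart LECs were 3.29 lower than BECs (SE 0.21, adjusted p = 2.49e-11; -2.79 and -3.53 by batch), and diaphragm LECs a further 1.50 lower (SE 0.29, adjusted p = 0.00183; -1.51 and -1.59). The 6 leukocyte markers summed to 23.0 to 78.3 TPM in BECs and 507 to 1678 in cardiomyocytes. The 6 BEC markers summed to 12991 to 19226 and 1880 to 3358 TPM in the same order. The part of either set in the Nos2 values was not tested. Nos2 made up 14.9 to 25.1% of the 3 synthases in BECs and 1.06 to 13.2% in heart LECs, and these ranges did not meet. In cardiomyocytes it made up 17.1 to 25.9%, overlapping the BEC range. Nos1, the neuronal synthase, was at 0.0119 to 7.04 TPM over all libraries and no population comparison passed (adjusted p = 0.266, 0.939 and 0.133 in the order above).

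Cav1, the caveolar protein that binds and inhibits Nos3, followed the order of Nos3. It spanned 1936 to 2792 TPM in BECs (median 2471), 1014 to 1776 in heart LECs (median 1424), 965 to 1582 in diaphragm LECs (median 1313) and 368 to 630 in cardiomyocytes (median 489). BECs stood above all other libraries and cardiomyocytes below. Heart LECs were 0.80 lower than BECs (SE 0.08, adjusted p = 1.10e-08; -0.76 and -0.84 by batch). The diaphragm LECs differed from heart LECs by -0.07 (interval -0.24 to 0.11, adjusted p = 0.793), although Nos3 was lower there.

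The cyclase subunits, the receiving end of the nitric oxide signal, had their highest level in diaphragm LECs and their lowest median in BECs. Gucy1a1 spanned 64.6 to 124 TPM there (median 90.1), 19.9 to 65.4 in heart LECs (median 40.8), 15.6 to 38.0 in cardiomyocytes (median 24.6) and 13.2 to 35.6 in BECs (median 20.9). Gucy1b1 spanned 50.6 to 107 TPM in diaphragm LECs (median 74.0) and 20.9 to 53.0 in heart LECs (median 34.0), against 8.47 to 17.1 in cardiomyocytes (median 13.3) and 7.83 to 23.2 in BECs (median 11.9). Cardiomyocytes and BECs overlapped widely for each subunit, while heart and diaphragm LECs met only at the edges of their ranges. Heart LECs were higher than BECs by 0.80 for Gucy1a1 (SE 0.18, adjusted p = 0.00171; 1.03 and 0.63 by batch) and by 1.37 for Gucy1b1 (SE 0.16, adjusted p = 4.06e-07; 1.32 and 1.42), each in 12 of 12 mice. Diaphragm LECs were higher than heart LECs by 1.28 for Gucy1a1 (SE 0.18, adjusted p = 3.31e-05) and by 1.15 for Gucy1b1 (SE 0.17, adjusted p = 5.56e-05), each in 11 of 11 mice. The ratio of Gucy1b1 to Gucy1a1 in TPM had a median of 0.834 in heart LECs, 0.845 in diaphragm LECs, 0.551 in BECs and 0.497 in cardiomyocytes, with overlapping ranges. Markers of mural cells, in which these subunits are well known, summed to 46.9 to 681 TPM in diaphragm LECs, 46.8 to 862 in heart LECs and 160 to 446 in BECs, and their part was not tested.

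**Figure D2:**
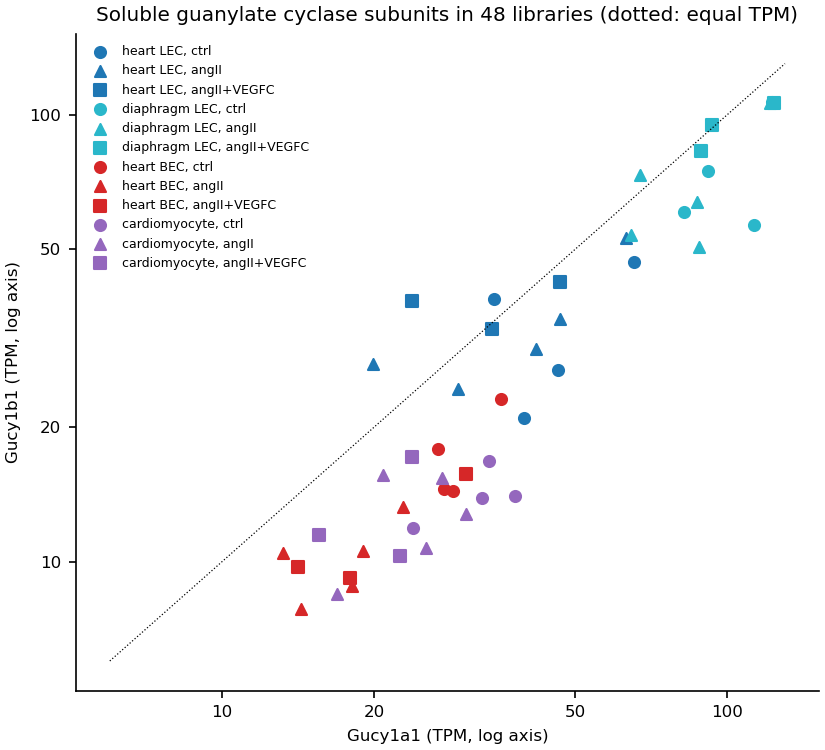
Gucy1b1 against Gucy1a1 in TPM on log axes, 1 point per library (48), coloured by population with the marker shape giving the treatment; the dotted line is equal TPM. Diaphragm LECs lie at the upper right, at 64.6 TPM of Gucy1a1 and above, while BECs and cardiomyocytes share the lower left and lie below the line.

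Compared with BECs, cardiomyocytes were lower in Edn1 by 1.58, Ednrb by 2.30, Ece1 by 2.38, Nos2 by 2.53, Nos3 by 2.73 and Cav1 by 2.34 on the log2 scale, with no overlap between the libraries for any of these 6. The call is common here, as 64.1% of all genes were called lower and 10.8% higher. The libraries did not overlap for 26.9% of all genes, against 7 of the 10. Gucy1a1 (0.19, interval -0.08 to 0.47, adjusted p = 0.187) and Gucy1b1 (0.05, interval -0.22 to 0.32, adjusted p = 0.716) did not pass. After quantile normalization, which moved the median of all genes to -0.14, they were 1.01 and 0.80 higher in cardiomyocytes and passed (adjusted p = 1.81e-07 and 4.40e-06), and the 9 genes then called split into 3 higher and 6 lower. Without the BEC library of angII+VEGFC mouse 8, Gucy1a1 also passed (0.29, adjusted p = 0.0383), and so did Nos1 (-0.35, adjusted p = 0.0428), which passed too without the cardiomyocyte library of the same mouse (adjusted p = 0.0444). All cardiomyocyte libraries belonged to a sequencing batch of their own, and batch and population cannot be told apart.

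**Figure D3:**
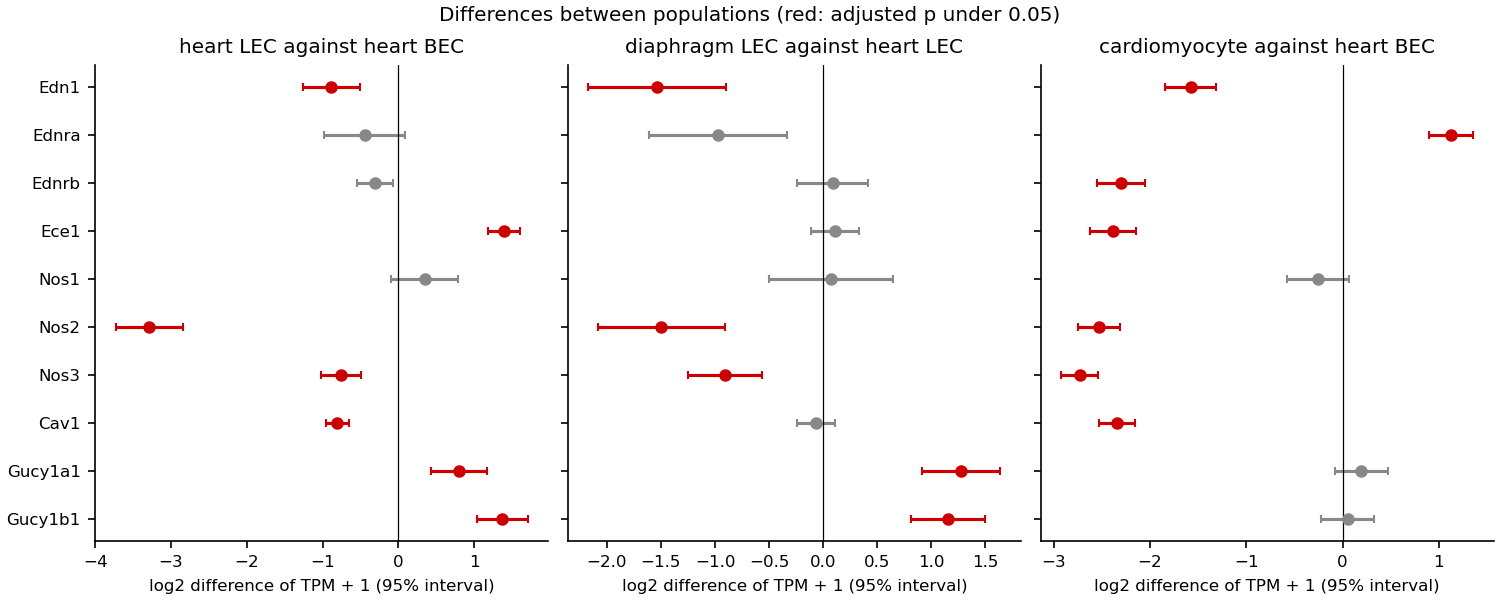
Difference between populations for each of the 10 genes, as log2 of TPM + 1 with its 95% interval, in red where the adjusted p is under 0.05. Ece1, Gucy1a1 and Gucy1b1 lie to the right in heart LECs against heart BECs, both cyclase subunits lie to the right in diaphragm against heart LECs, and only Ednra is red on the right in cardiomyocytes against heart BECs.

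In control mice alone, with 4 libraries a side, 1 of the 5 genes that differed between diaphragm and heart LECs passed, Gucy1b1 (1.16, adjusted p = 0.0462). The others kept their direction with Gucy1a1 at 1.14 (adjusted p = 0.0769), Edn1 at -1.07 (adjusted p = 0.437), Nos2 at -1.07 (adjusted p = 0.396) and Nos3 at -0.58 (adjusted p = 0.441). Between heart LECs and BECs in control mice, Gucy1a1 no longer passed (0.60, adjusted p = 0.266). Counts over all genes also varied across the alternative fits, 247 to 1248 around 924 between diaphragm and heart LECs. Between heart LECs and BECs they were 2810 to 6887 around 6176. The calls lost in control mice were not compared with those lost over all genes.

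The treatment contrasts asked whether angII, or VEGFCc156s on top of it, changed these genes within a population. None of the 10 genes passed limma's adjusted threshold in any of the 12 contrasts (9 genes tested in cardiomyocytes, where Nos1 was too low to test). At an unadjusted p under 0.05, in the order angII against ctrl, angII+VEGFC against angII and angII+VEGFC against ctrl, the count was 1, 3 and 0 in heart LECs, 1, 1 and 0 in diaphragm LECs, 4, 0 and 3 in BECs and 0, 0 and 1 in cardiomyocytes. Over all genes the adjusted test called 0.0261%, 0% and 0% in heart LECs, 0% throughout in diaphragm LECs and BECs, and 0.0892%, 0% and 0.663% in cardiomyocytes. The share of all genes at an unadjusted p under 0.05 in the same order was 10.9%, 10.8% and 4.94% in heart LECs, 15.3%, 8.78% and 1.32% in diaphragm LECs, 5.4%, 2.59% and 5.51% in BECs and 9.85%, 2.41% and 12.9% in cardiomyocytes. In heart LECs the median of all genes was 0.24, -0.37 and -0.13 in these contrasts and that of the 10 genes 0.11, 0.09 and 0.09, and in diaphragm LECs 0.28, -0.21 and 0.05 against -0.11, 0.18 and -0.02. Medians of all genes were at most 0.06 in size in BECs and 0.12 in cardiomyocytes, and quantile normalization brought each of the 12 to 0.03 or less. The contrasts of a population share samples, angII or ctrl, and are not independent of each other.

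In BECs, angII libraries held less of both cyclase subunits than every ctrl library. Gucy1a1 was at 26.8, 27.5, 28.6 and 35.6 TPM in the 4 ctrl libraries, at 13.2, 14.3, 18.1, 19.1 and 22.8 in the 5 angII libraries and at 14.1, 17.9 and 30.4 with VEGFCc156s. Gucy1b1 was at 14.4, 14.5, 17.9 and 23.2 TPM in ctrl, 7.83, 8.84, 10.5, 10.6 and 13.3 in angII, and 9.19, 9.72 and 15.7 with VEGFCc156s. The ctrl and angII libraries did not overlap for either gene, as for 0.898% of all genes in this direction, while mouse 8 of the angII+VEGFC group lay within the ctrl range. The difference of angII from ctrl was -0.68 for Gucy1a1 (SE 0.22, unadjusted p = 0.00783, adjusted p = 0.805; -0.60 and -0.92 by batch) and -0.68 for Gucy1b1 (SE 0.22, adjusted p = 0.809; -0.46 and -1.05), and -0.74 and -0.75 without the 3 BEC libraries rich in fibroblast markers. The difference of angII+VEGFC from ctrl was -0.64 (adjusted p = 0.865) and -0.62 (adjusted p = 0.877). Mural markers moved the same way: their sum was 317 to 395 TPM in ctrl and 160 to 301 in angII BECs without overlap, 8 of 8 mural markers had lower values in angII, 0 of them at the adjusted threshold and 4 at an unadjusted p under 0.05, and their part in the cyclase values was not tested. The mural sum was 258 to 446 TPM in the angII+VEGFC group.

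Of the endothelin genes of BECs, Edn1 and Ednrb had unadjusted p-values under 0.05 in angII against ctrl, while Ednra (-0.37) and Ece1 (-0.23) did not, each with adjusted p = 0.953. Edn1 was at 29.9, 32.9, 35.0 and 48.2 TPM in ctrl and at 18.1, 21.9, 25.7, 29.8 and 37.0 in angII, where 4 of the 5 angII libraries were below the lowest ctrl library. The difference was -0.54 (SE 0.19, adjusted p = 0.822; -0.45 and -0.53 by batch). Ednrb was at 108, 143, 167 and 192 TPM in ctrl, 161, 176, 178, 212 and 222 in angII, and 194, 200 and 215 with VEGFCc156s, so the last group lay above all ctrl libraries, as it did for 2.55% of all genes. The differences from ctrl were 0.41 (SE 0.12, adjusted p = 0.759; 0.35 and 0.39 by batch) for angII and 0.33 (adjusted p = 0.902; 0.57 and 0.30) for angII+VEGFC.

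In heart LECs Nos2 had the largest values in the angII group. It was at 4.02, 5.03, 5.46 and 9.03 TPM in ctrl, at 7.23, 10.5, 11.2, 17.6 and 33.9 in angII and at 1.72, 3.90 and 6.34 with VEGFCc156s. The angII+VEGFC libraries were all below the angII libraries, as they were for 7.33% of all genes, and ctrl overlapped both. The differences were 1.15 for angII against ctrl (SE 0.49, adjusted p = 0.413; 1.26 and 0.99 by batch) and -1.64 for angII+VEGFC against angII (SE 0.58, adjusted p = 0.416; -1.79 and -1.47). The BEC marker sum of the same libraries was 1259 to 2813 TPM in ctrl, 2879 to 7388 in angII and 1777 to 2156 in angII+VEGFC, 6 of 6 BEC markers had higher values in angII than in ctrl and lower values with VEGFCc156s, and the libraries with 33.9 and 17.6 TPM of Nos2 had the highest sums, 7388 and 6408. BECs hold 46.1 to 99.9 TPM of Nos2, and the part of BEC RNA in the LEC values was not tested. With the number of genes at 1 TPM as a covariate the Nos2 differences were 2.10 (adjusted p = 0.329) and -3.01 (adjusted p = 0.831). That number was 16131 to 24086 in ctrl, 19957 to 25896 in angII and 16756 to 18884 in angII+VEGFC heart LECs, the last below every angII library. The cardiomyocyte markers of these libraries summed to 76.5 to 149 TPM in ctrl, 117 to 582 in angII and 81.4 to 180 in angII+VEGFC, 6 of 6 had higher values in angII than in ctrl and lower values with VEGFCc156s, and their part, like that of the number of genes, was not tested. Nos3, also higher in BECs, was at 92.7 to 234 TPM in ctrl and 136 to 221 in angII LECs (0.12, interval -0.44 to 0.68).

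Ednra and Ece1 had unadjusted p-values under 0.05 in angII+VEGFC against angII heart LECs. Ednra was at 1.58, 1.77, 3.38 and 10.1 TPM in ctrl, 1.89, 3.40, 7.80, 12.1 and 15.6 in angII and 1.26, 1.84 and 3.54 with VEGFCc156s, and all 3 groups overlapped. The difference was -1.43 (SE 0.67, adjusted p = 0.460; -0.92 and -1.28 by batch), but -0.01 (adjusted p = 0.999) with the number of genes at 1 TPM as a covariate. The mural markers of these libraries, 119 to 862 TPM in angII and 86.9 to 262 with VEGFCc156s, had lower values in 7 of 8 genes, and their part was not tested. Ece1 was at 938, 1030, 1142, 1341 and 1520 TPM in angII and 1507, 1628 and 1864 with VEGFCc156s, overlapping by 1 library, a difference of 0.54 (SE 0.21, adjusted p = 0.429; 0.66 and 0.41 by batch).

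In diaphragm LECs the Ece1 contrast between the same groups had a like size. Ece1 was at 1196, 1500, 1536 and 1661 TPM in ctrl, 714, 1091, 1308, 1377 and 1558 in angII and 1682, 1730 and 2046 with VEGFCc156s, so the last group was above every other diaphragm library. The same held for 1.34% of all genes against angII and for 2.54% against ctrl. The difference from angII was 0.57 (SE 0.20, adjusted p = 0.567; 0.78 and 0.34 by batch), 0.39 without the library of angII mouse 4 (adjusted p = 0.615) and 0.38 with the number of genes at 1 TPM as a covariate (adjusted p = 1.00). Nos1 was at 0.0119, 0.249, 0.443 and 1.46 TPM in ctrl and 0.737, 1.85, 2.20, 2.64 and 7.04 in angII, with 1 ctrl library inside the angII range. The difference was 1.20 (SE 0.50, adjusted p = 0.307; 0.96 and 1.50 by batch), and 0.93 without mouse 4, whose 7.04 TPM was the highest of any library. With a pseudocount of 0.1 it was 2.39, after quantile normalization 0.37, and with the number of genes at 1 TPM as a covariate -0.12 (adjusted p = 1.00). Mouse 4 also set the lowest Nos3 of the angII group, 34.2 TPM, and the 0 of Edn1: leaving it out moved the angII difference of Nos3 from -0.50 to -0.24 and that of Edn1 from -1.03 to -0.55, none of which passed. In angII diaphragm LECs 20062 to 23691 genes reached 1 TPM, against 12924 to 18116 in ctrl and 14963 to 18373 in angII+VEGFC. The 6 cardiomyocyte markers summed to 7.03 to 186 TPM in ctrl, 16.8 to 277 in angII and 6.61 to 11.0 in angII+VEGFC, with higher values of 6 of 6 in angII against ctrl and lower values of 6 of 6 in angII+VEGFC against angII. The 6 leukocyte markers summed to 17.4 to 133, 44.9 to 286 and 9.66 to 22.1 TPM in the same order, and the part of these markers was not tested.

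In cardiomyocytes Gucy1a1 was at 23.9, 32.8, 33.8 and 38.0 TPM in ctrl, at 16.9, 20.9, 25.3, 27.3 and 30.4 in angII and at 15.6, 22.6 and 23.8 with VEGFCc156s. The last group lay below all ctrl libraries, as did its Ednra, which was at 10.7, 10.8 and 11.3 TPM against 13.7, 14.0, 14.5 and 16.8 in ctrl. The last group lay below ctrl for 4.78% of all genes, and the differences were -0.59 (SE 0.24, adjusted p = 0.316) and -0.40 (SE 0.20, adjusted p = 0.407). Nos2 was at 10.2, 11.1, 11.7 and 12.4 TPM in ctrl and at 12.6, 12.6, 13.9, 14.8 and 16.7 in angII, all higher, as for 5.1% of all genes, and at 9.62, 11.5 and 11.6 with VEGFCc156s, all below angII, as for 0.848% of all genes. The differences were 0.29 (SE 0.16, adjusted p = 0.599) and -0.34 (SE 0.19, adjusted p = 1.00). Leukocyte markers summed to 507 to 655 TPM in ctrl, 744 to 1496 in angII and 764 to 1678 in angII+VEGFC, with higher values for 6 of 6 markers in each treated group against ctrl, and their part was not tested.

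**Figure D4:**
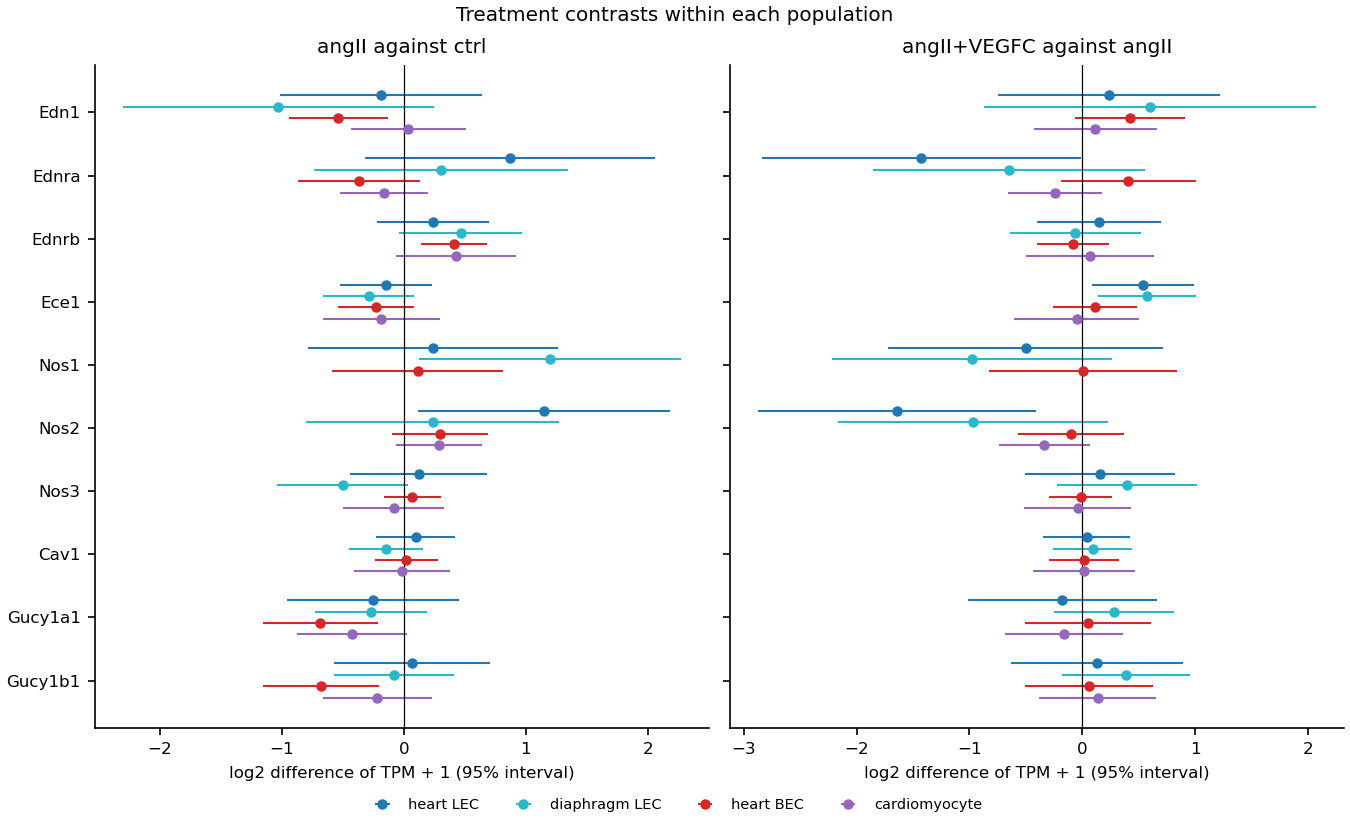
Treatment differences of the 10 genes within each population, as log2 of TPM + 1 with 95% intervals, for angII against ctrl (left) and angII+VEGFC against angII (right); Nos1 was not tested in cardiomyocytes. In LECs the intervals are narrowest for Cav1 and widest for Ednra in the heart and Edn1 in the diaphragm, and no adjusted p passed.

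The difference of a treatment effect between endothelial populations was tested by an interaction, and 0 of 10 genes passed limma's adjusted threshold in any of the 9 contrasts, where at most 0.00611% of all genes passed. At an unadjusted p under 0.05, 1 gene was found in angII against ctrl of heart LECs against BECs (Gucy1b1, 0.76, adjusted p = 0.681) and 2 in angII+VEGFC against angII of the same populations (Nos2, -1.51, and Ednra, -1.66, each with adjusted p = 0.768). For diaphragm LECs against BECs, 1 was found in angII against ctrl (Nos1, 1.11, adjusted p = 0.445) and 1 in angII+VEGFC against ctrl (Gucy1b1, 0.95, adjusted p = 1.00), and the other 5 held 0. The shares of all genes in these 4 contrasts were 7.19%, 6.43%, 11% and 1.41%, and in the other 5 they were 3.73%, 7%, 9.7%, 4.88% and 5.26%.

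Around these 10 genes, 46 others supply, modify or carry the signals. Between heart LECs and BECs 42 of them were tested, and 8 were higher and 10 lower, with a median of -0.20, beside the 21% of all genes called and their median of 0.16. The LECs were higher in Gchfr, the feedback inhibitor of the first enzyme of tetrahydrobiopterin synthesis, which Nos3 needs as cofactor (2.67, SE 0.20, adjusted p = 1.72e-10), and lower in Gch1, that enzyme itself (-1.64, SE 0.20, adjusted p = 6.20e-07). Gchfr spanned 9.81 to 40.7 TPM in heart LECs and 1.32 to 6.41 in BECs, and Gch1 4.09 to 39.4 and 43.5 to 63.5, with no overlap for either. The Gch1 to Gchfr ratio per library was 0.399 to 1.90 in heart LECs and 6.78 to 43.1 in BECs. In diaphragm LECs, where 1 library was at 0 for Gchfr and had no ratio, it was 0.473 to 2.04 in 11 libraries.

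A like exchange held for the enzymes that degrade asymmetric dimethylarginine, an endogenous inhibitor of the synthases. Ddah1 was 2.66 higher in heart LECs than in BECs (SE 0.20, adjusted p = 2.38e-10) and Ddah2 1.22 lower (SE 0.15, adjusted p = 8.66e-07). Ddah1 spanned 24.6 to 69.0 TPM in heart LECs and 3.87 to 16.9 in BECs, and Ddah2 48.9 to 168 and 217 to 302, again without overlap. Ddah1 made up 12.8 to 58.5% of both in heart LECs, 42.5 to 59.2% in diaphragm LECs and 1.60 to 5.31% in BECs. Of the partners of the synthases, Nostrin, which moves Nos3 away from the membrane, was 2.91 lower in heart LECs (adjusted p = 3.60e-10) and Nos1ap, an adaptor of Nos1, was 1.14 higher (adjusted p = 9.89e-05). Vasp, a target of cyclic GMP-dependent kinase, was 1.32 lower (adjusted p = 2.18e-07), as was the cyclic GMP phosphodiesterase Pde9a by 1.17 (adjusted p = 0.0341). For arginine, the transporter Slc7a1 was 0.50 higher (adjusted p = 0.0328) and Ass1, which recycles citrulline, 0.63 lower (adjusted p = 0.0176).

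**Figure D5:**
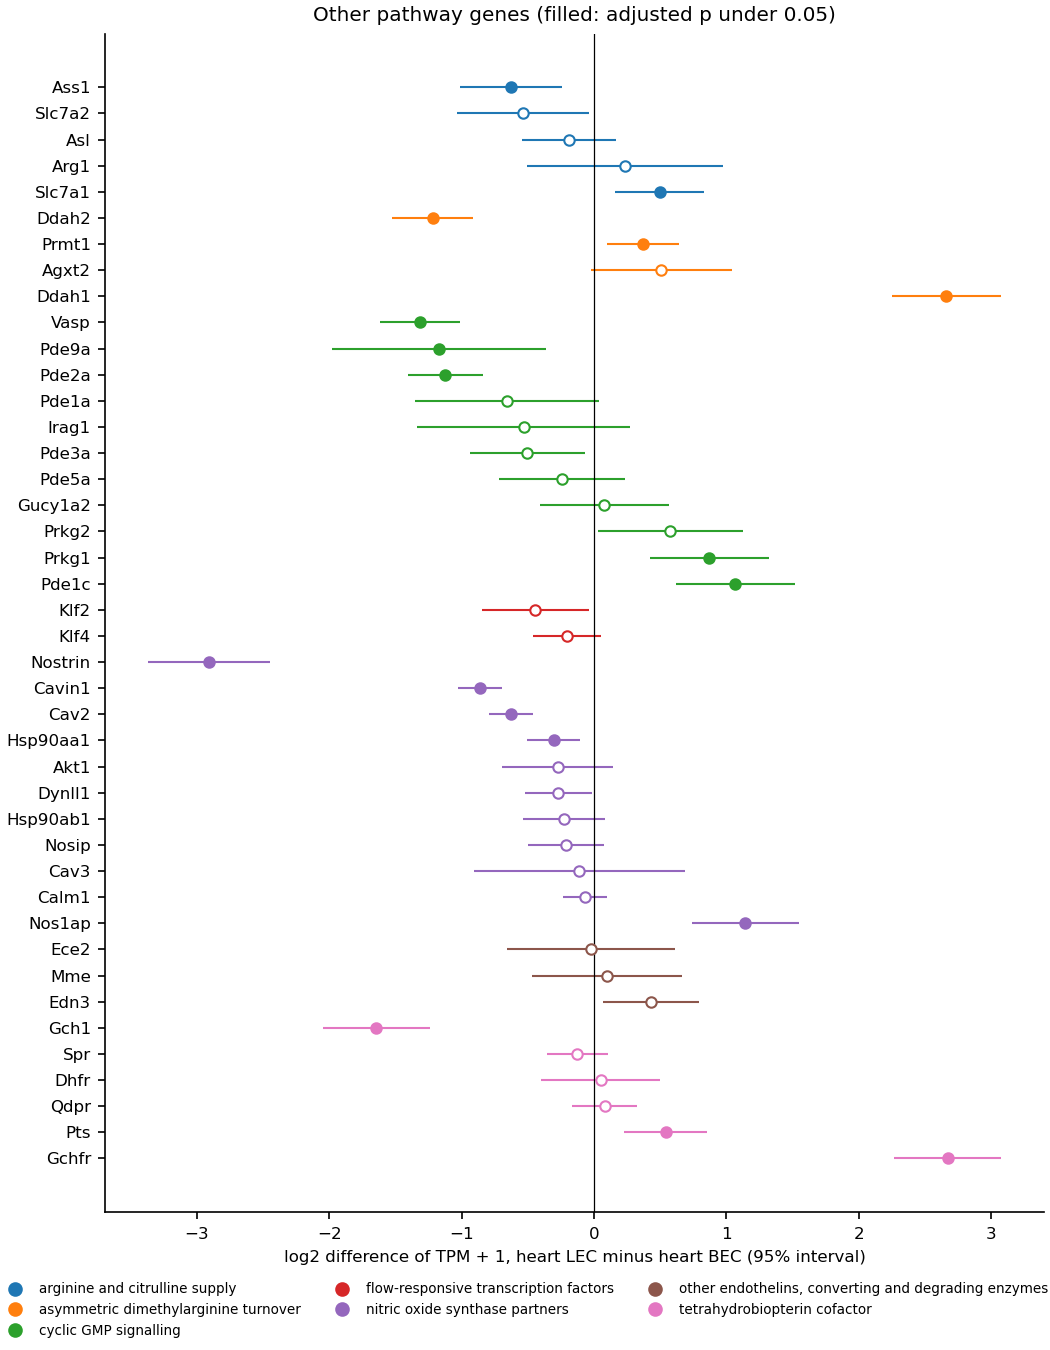
Difference of heart LECs from heart BECs for the 42 other pathway genes tested, as log2 of TPM + 1 with 95% intervals, coloured by role and filled where the adjusted p is under 0.05. Gchfr and Ddah1 lie farthest to the right, at 2.67 and 2.66, and Nostrin farthest to the left, at -2.91.

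Between diaphragm and heart LECs 43 of the 46 were tested, and 0 were higher and 5 lower, beside 1.3% of all genes called higher and 1.65% lower. The 5 lower genes were Nostrin by 1.48 (adjusted p = 0.00235), the phosphodiesterases Pde3a by 1.47 (adjusted p = 0.000820) and Pde1a by 1.22 (adjusted p = 0.0396), Ddah2 by 1.06 (adjusted p = 0.000228) and the chaperone Hsp90aa1 by 0.60 (adjusted p = 0.000865). Between cardiomyocytes and BECs 41 were tested, with 7 higher and 25 lower, beside 10.8% of all genes called higher and 64.1% lower. Their median was -0.60, and that of all genes -0.61. Cav3, the muscle caveolin, was 3.71 higher (adjusted p = 2.51e-13), Pde1a 1.82, Ece2 1.56 and Ddah1 1.31 higher. In the contrast of control mice Ece2 was 0.77 (adjusted p = 0.128) and Ddah1 -0.14 (adjusted p = 0.786), so neither passed there and Ddah1 changed direction. Cav2, Pde2a, the flow-responsive factors Klf2 and Klf4, and Gch1 were lower by 2.56, 2.52, 2.31, 2.18 and 1.90. Slc7a1 was lower by 1.38, Ddah2 by 1.32, Qdpr, which regenerates the cofactor, by 1.04, and Asl, the partner of Ass1, by 0.97.

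Of the 46 genes, 1 passed in any treatment contrast. Ddah1 in cardiomyocytes was at 3.46 to 8.50 TPM in the 4 ctrl libraries, at 16.5 to 43.5 in the 5 angII libraries and at 10.6, 48.2 and 77.7 with VEGFCc156s, so all treated libraries were above all controls. It was 2.42 higher in angII+VEGFC than in ctrl (SE 0.51, adjusted p = 0.0480), where 0.663% of all genes passed, and 2.19 in angII than in ctrl did not pass (SE 0.45, adjusted p = 0.0812). The call did not hold in 12 of 19 alternative fits, 10 of them among the 12 that leave out a library, with adjusted p up to 0.291. In BECs the angII difference of Ddah1 was -0.16 (interval -0.97 to 0.64). Fibroblast markers were 2157 to 3113 TPM in ctrl and 3102 to 4551 in angII cardiomyocytes, 3091 to 4724 with VEGFCc156s, and like the leukocyte markers above their part in Ddah1 was not tested.

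Genes with the most similar pattern were ranked by Pearson correlation of log2(TPM + 1) over the 48 libraries among 29308 genes. The points share mice, populations and library complexity, so the values describe the libraries. Edn1 was closest to Mfge8 (0.89), Psmb8, Slc12a7, Ptgs1 and Tmem229b (0.85), Ednra to Casq2 (0.87), Rrad, Rasl12, Pcdh18 and Ldhb (0.85), Ednrb to Ctla2a (0.96), Ywhaz, Hnrnpk, Hnrnpu and Pak2 (0.95), and Nos3 to Eng (0.96), Adgrf5, Ly6e, Klf3 and H2-D1 (0.94). With the mean of each population taken off, so that only differences among libraries of a population count, the closest were Rnf167 (0.82), Hic1, Prpf31, Tor4a and Zfp110 (0.79) for Edn1, Gm18800 (0.76), Vmn1r127, Slc5a9, Gm44753 and Dnajb7 (0.75) for Ednra, Stc1 (0.77), Pitpna, Ctla2a, Socs5 and Spp1 (0.71) for Ednrb, and Rfk (0.85), Brcc3, Tmem132a, Atp13a1 and Pecam1 (0.79) for Nos3. Gucy1a1 and Gucy1b1 correlated at 0.92 over the 48 libraries, and within the 12 libraries of a population at 0.90 in BECs, 0.63 in diaphragm LECs, 0.53 in cardiomyocytes and 0.49 in heart LECs. Nos3 and Cav1 correlated at 0.93 over the 48 and at 0.57 to 0.80 within populations.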

How the data were processed

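The members and the lists of pathway and marker genes were chosen with earlier results of these data known. The authors aligned reads to GRCm38 with STAR 2.5.3a, quantified genes with Salmon 0.12.0 (versions from the submitters' processing notes) and deposited TPM. They also ran a count-based test with surrogate variables, not used here. From it the paper reported significant changes with angiotensin II in all 4 populations. Many of these were reported as reversed by VEGFCc156s in heart and diaphragm LECs. The counts of called genes given here are those of the fit on TPM. TPM keep no counts, so no counting error is given. Genes reaching 1 TPM in 3 or more of the libraries of a fit were tested on log2(TPM + 1), a scale that understates changes of low genes, with limma 3.58.1 (R 4.3.3, variance trend) and Benjamini-Hochberg adjustment over all genes at 0.05. Age and, for endothelium, batch were covariates. The code was tested on simulated data. Tables and plots used Python 3.11.15 and matplotlib 3.10.9.

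All 10 genes were named, and of the 46 pathway genes up to 2 called genes per role and comparison with the largest difference. Treatment groups hold different mice. The mouse number pairs libraries of different populations, since it marks the same animal. The mean correlation of deviations from the group mean was 0.088, 0.054 and 0.034 in the same mouse, against -0.027, -0.015 and -0.01 between mice. Single pairs ran from -0.221 to 0.261. Libraries of a mouse also share age and, in endothelium, batch, so these correlations do not test the pairing. Labels gave groups, batch and age. Alternatives were another pseudocount (0.1), no filter, quantile normalization, no covariates, a surrogate variable and the number of genes at 1 TPM as a covariate. Further ones were 2 groups alone, a contrast of control mice in the full fit, a mouse block and leaving out each library. The last, added after seeing the data, left out the 3 BEC libraries with the most fibroblast markers.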

Additional observations from a re-analysis of the deposited data

Results flagged for a closer look

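Of 80 groups of 4 or 5 libraries (10 genes), 4 held a library whose gap to the nearest other was large for the range of its group, and chance gives about 1 in 20. Edn1 in ctrl cardiomyocytes was at 13.2 TPM in mouse 9 against 7.69 to 8.33 in the other 3. Ednra in ctrl diaphragm LECs was at 2.80 TPM in mouse 9 against 0.981 to 1.24. Nos2 in the same library was at 5.57 TPM against 1.33 to 1.71. That library also held 681 TPM of mural, 899 of fibroblast and 140 of neural markers, against 60.4 to 85.2, 123 to 189 and 1.38 to 2.79 in the other 3 ctrl libraries, and their part in the Ednra and Nos2 values was not tested. Nos3 in angII diaphragm LECs was at 34.2 TPM in mouse 4 against 87.0 to 107 in the other 4, the library with the lowest LEC marker sum.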

How the results depend on the processing

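Of 6937 values of the 10 genes in alternative fits, 6924 kept their call, with the direction kept wherever a call was made. In 5 a call was lost and in 8 one was gained, all given above. The replicate block (mouse) moved Ednrb, -0.31 for heart LECs against BECs, across the threshold and changed no other call of the 10 genes, which then numbered 8, 5 and 7 in the 3 population comparisons. In the contrast of control mice 1 of the 10 genes passed between diaphragm and heart LECs. Leaving out the 3 BEC libraries with the most fibroblast markers, chosen after seeing the data, changed no call of the 10 genes, and Pde9a did not pass between heart LECs and BECs (-1.08, adjusted p = 0.103). Among the 6937 values, 333 uncalled differences changed sign.

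Of 882 values of the named pathway genes, 817 kept their call. Ddah1, cardiomyocytes against BECs, was -0.14 in the contrast of control mice (adjusted p = 0.786). Pde1a lost its call in 19 of 30 fits between diaphragm and heart LECs, and Pde9a in 14 and Slc7a1 in 12 of 31 between heart LECs and BECs. Ass1 lost it in 2, 1 of them without the BEC library of angII+VEGFC mouse 8 (-0.55, adjusted p = 0.0540). Asl under quantile normalization (-0.22) and Ece2 in the contrast of control mice (0.77) lost it between cardiomyocytes and BECs. Ddah2, Pde3a and Nostrin lost it in the contrast of control mice between diaphragm and heart LECs.

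Counts of called genes over the whole matrix varied more: 2810 to 6887 around 6176 for heart LECs against BECs, 247 to 1248 around 924 for diaphragm against heart LECs, 0 to 31 around 7 for angII against ctrl in heart LECs, 0 to 520 around 0 in diaphragm LECs, 0 to 473 around 14 in cardiomyocytes and 0 to 852 around 104 for angII+VEGFC against ctrl there. The cause was not tested. Depth is unknown, which limits what can be said of Nos1, Nos2 in diaphragm LECs and other genes near 1 TPM.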
